A study of Mus musculus with 6 samples.

Results

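The genes described here are 45 genes of the lysosome, given as a list of gene names in 4 classes. There were 22 hydrolases or lumenal cofactors, 7 membrane proteins of the lysosome, 8 members of the vacuolar proton pump (V-ATPase) and 8 regulators, namely the MiT/TFE transcription factors, the Rag GTPases and the folliculin complex. All 45 were found by name among the 21878 genes of the count table, and all 45 were among the 11459 genes with enough counts to be tested. The cells were mouse macrophages grown from C57BL/6 bone marrow with macrophage colony-stimulating factor (M-CSF) at 50 ng/mL and then held for 48 h in a transwell with LLC mouse lung carcinoma cells, kept apart by 0.4 µm pores. After a change of medium, one group was given 100 µg/mL of β-elemene, which is a sesquiterpene made by plants, and the other received phosphate-buffered saline (PBS) of the same volume, each for 24 h. Each group had 3 RNA-seq libraries, and every library came from macrophages that had shared medium with LLC cells. The labels do not say whether the libraries of a group came from separate cultures, so a p-value here reflects only how far these libraries spread, and that spread may be technical.

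The lysosome is the acidic compartment in which macrophages break down what they engulf. The V-ATPase pumps protons into it with a membrane sector, V0, driven by an ATP-splitting sector, V1. Lumenal hydrolases cut sugars, lipids, sulfates and peptides at low pH, and membrane proteins protect the membrane and carry the products out. TFEB, TFE3 and MITF switch on many of these genes, and the Rag GTPases with folliculin bring the mTORC1 kinase and these factors to the lysosomal surface, where they are held in check when nutrients are plentiful.

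The sum of gene counts ran between 18916844 and 20550078 in the β-elemene libraries and between 20524959 and 20729887 in the PBS libraries. Levels are given as CPM, counts scaled to a common library total, after TMM scaling, a correction for the make-up of each library, and between genes as CPM per kilobase of transcript. TMM gave factors of 0.794 to 0.812 for the β-elemene libraries and of 1.24 to 1.26 for the PBS libraries. Scaling by library size alone shifted the median over all genes tested by −0.64 on the log2 scale, and upper-quartile scaling shifted it by −0.32. Of the 8 macrophage markers, all were present, 6 were higher and 2 lower with β-elemene, and their summed level ran between 16588.1 and 17157.8 CPM in the β-elemene libraries and between 12710.1 and 13684.5 CPM in the PBS libraries. Under library-size scaling, 3 were higher and 4 lower, and the order of the sums turned round, at 13257.5 to 13931.1 CPM for β-elemene against 15987.7 to 16973.9 CPM for PBS. The summed level of 8 epithelial and LLC markers was 0.0613 to 0.13 CPM with β-elemene and 118.6 to 145.7 CPM with PBS. With PBS nearly all of it was Cdh1. Krt19, Sftpc and Nkx2-1 were at 0 in all 6 libraries, and Krt8, Krt18, Epcam and Krt7 had at most 2 counts in any library. Summed markers of dendritic cells (2.70 to 3.08 against 7.77 to 8.27 CPM), endothelium (5.40 to 6.70 against 18.6 to 22.7 CPM) and erythroid cells or megakaryocytes (27.0 to 41.1 against 81.7 to 100.7 CPM) were lower in the β-elemene libraries than in the PBS libraries. Those of neutrophils (34.6 to 50.3 against 21.7 to 23.6 CPM) were higher, but overlapped under library-size scaling. The sums of T or NK cell, B cell and fibroblast markers ranged from 0.984 to 25.95 CPM over all libraries. B cell markers were lower with β-elemene (0.984 to 1.90 against 1.94 to 4.45 CPM), and most of their sum with PBS was Cd79b. The sums of the other 2 types overlapped between groups, but of the fibroblast markers tested 1 was higher (Pdgfrb) and 3 were lower (Col1a1, Col1a2 and Col3a1). The part of these marker differences in the results below was not tested.

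Of the 45 lysosomal genes, 16 were higher and 14 were lower with β-elemene than with PBS, and 15 did not pass an adjusted p of 0.05 in edgeR's quasi-likelihood test with Benjamini-Hochberg adjustment. Among all genes tested, 76.7% passed, with 36.6% higher and 40.2% lower. A change of at least 2-fold that passed was seen in 11 of the 45 genes, or 24.4%, against 35.3% of all genes tested. Levels of the 2 groups were free of overlap in 31 of the 45 genes, and in 79.9% of all genes tested. The median log2 fold change was 0.04 over the 45 genes and −0.06 over all genes tested, and the median size of change was 0.25 and 0.64. The 3 genes that rose at least 2-fold were Lamp2, Rragc and Npc2, and the 8 that fell at least 2-fold were Npc1, Tfeb, Rragd, Flcn, Sgsh, Manba, Atp6v0a1 and Atp6v0d2. Scaling by library size alone gave 4 higher and 38 lower, where 18.9% of all genes tested were higher and 69.8% lower. Upper-quartile scaling gave 7 higher and 32 lower, where 25.7% of all genes tested were higher and 57% lower. Of the 30 genes that passed, 16 kept their direction and passed in all 14 alternative fits, 4 of them higher (Lamp2, Scarb2, Rragc and Npc2) and 12 lower (Cd63, Npc1, Tfeb, Rragd, Flcn, Sgsh, Manba, Asah1, Smpd1, Atp6v0a1, Atp6v0d2 and Atp6v1a). Of the 15 genes that did not pass, 0 stayed so in all 14 alternative fits. These bulk libraries cannot tell fewer cells of a type apart from less RNA per cell.

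**Figure D1:**
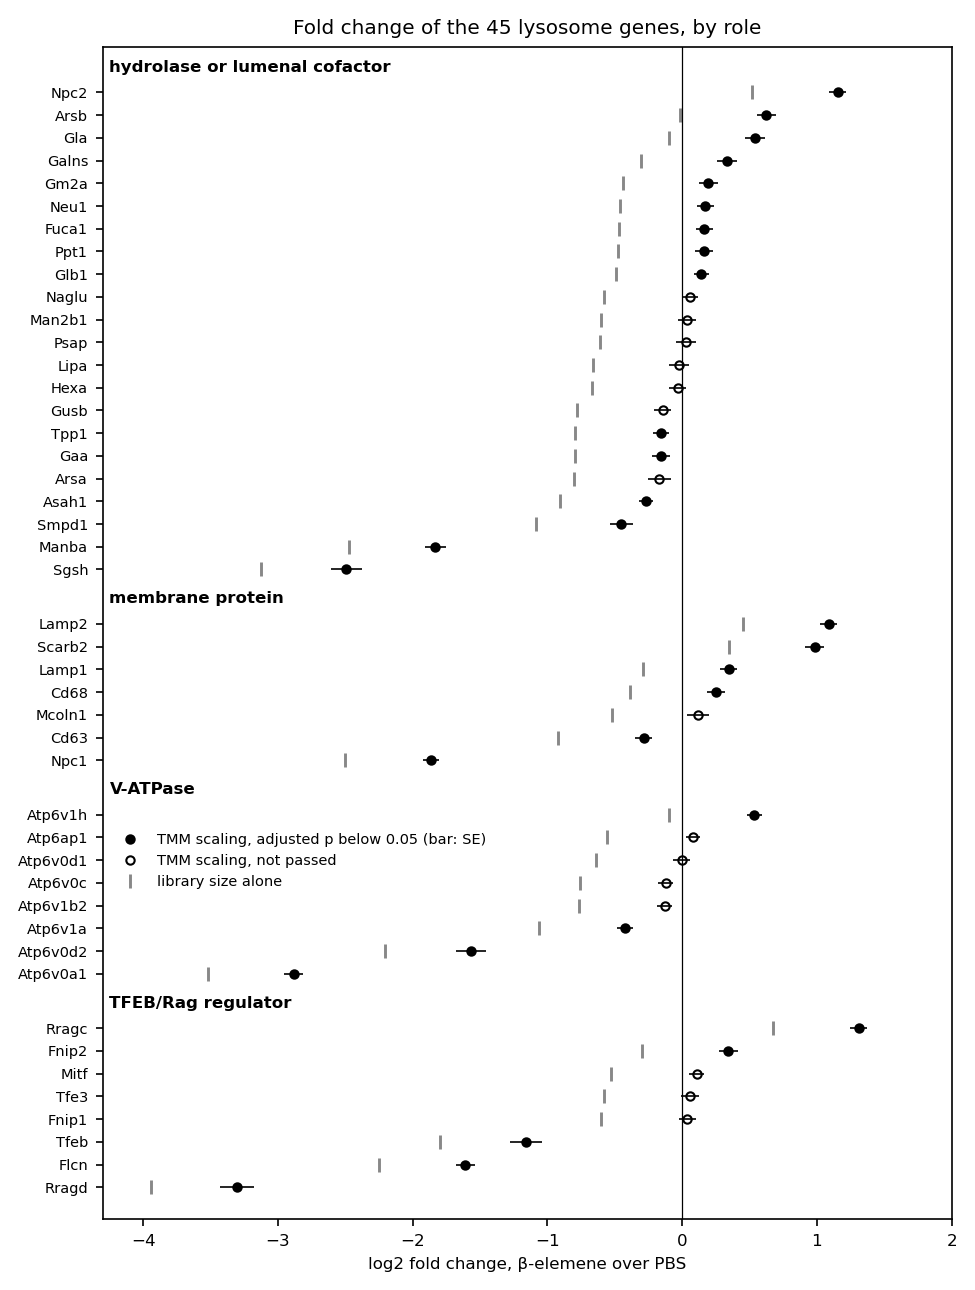
Log2 fold change of each of the 45 lysosomal genes, β-elemene over PBS, by class, with bars of 1 SE from edgeR and 3 libraries in each group. Filled points passed an adjusted p of 0.05, open points did not, and grey ticks show the value under library-size scaling, which is lower for every gene. Rragd at −3.30 and Atp6v0a1 at −2.88 lie lowest and Rragc at 1.31 lies highest.

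Among the 7 membrane proteins, 4 were higher, 2 were lower and 1 did not pass, but under library-size scaling 2 were higher and 5 lower. Lamp2, a glycoprotein of the lysosomal membrane that autophagy needs, stood at 952.7, 874.1 and 1011.0 CPM in the β-elemene libraries and at 439.6, 446.4 and 450.6 CPM in the PBS libraries. Every β-elemene library lay far above every PBS library, and the log2 fold change was 1.09 ± 0.07 (SE; adjusted p = 3.9e-09, edgeR). The gene lies on the X chromosome at chrX:38399647-38456460 (GRCm38.p6). Scarb2, the receptor that carries glucocerebrosidase to the lysosome, rose close to the same extent, at 231.4, 238.3 and 242.1 CPM with β-elemene and 116.5, 133.1 and 110.2 CPM with PBS (log2 fold change 0.98 ± 0.07, adjusted p = 1.72e-08, edgeR). Both rises kept their sign under library-size scaling, at 0.45 and 0.35.

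Npc1, the membrane protein that moves cholesterol out of the lysosome, was the membrane gene with the largest fall. Its level was 110.9, 120.3 and 114.7 CPM with β-elemene and 406.7, 447.2 and 404.5 CPM with PBS. The groups did not overlap, and the log2 fold change was −1.86 ± 0.06 (adjusted p = 8.69e-12, edgeR). Cd63, a tetraspanin of late endosomes and lysosomes, fell by 0.29 ± 0.06 on the log2 scale (adjusted p = 9.08e-04, edgeR).

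Per kilobase, the most abundant membrane gene was Cd68, which encodes the macrophage glycoprotein macrosialin and is also one of the macrophage markers, at 1125.4 CPM per kilobase with β-elemene against 945.4 with PBS. Its libraries held 1426.2, 1355.0 and 1371.5 CPM with β-elemene and 1142.9, 1228.0 and 1117.5 CPM with PBS. That difference, a log2 fold change of 0.25 ± 0.06 (adjusted p = 0.00277, edgeR), turned to −0.39 under library-size scaling, and that of Lamp1, the other major membrane glycoprotein, was 0.35 ± 0.06 (adjusted p = 2.32e-04, edgeR) and turned to −0.29. Mcoln1, the calcium channel TRPML1, changed least, at 39.6, 34.0 and 36.0 CPM with β-elemene and 32.6, 36.9 and 31.4 CPM with PBS, and its groups overlapped (adjusted p = 0.193, edgeR).

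**Figure D2:**
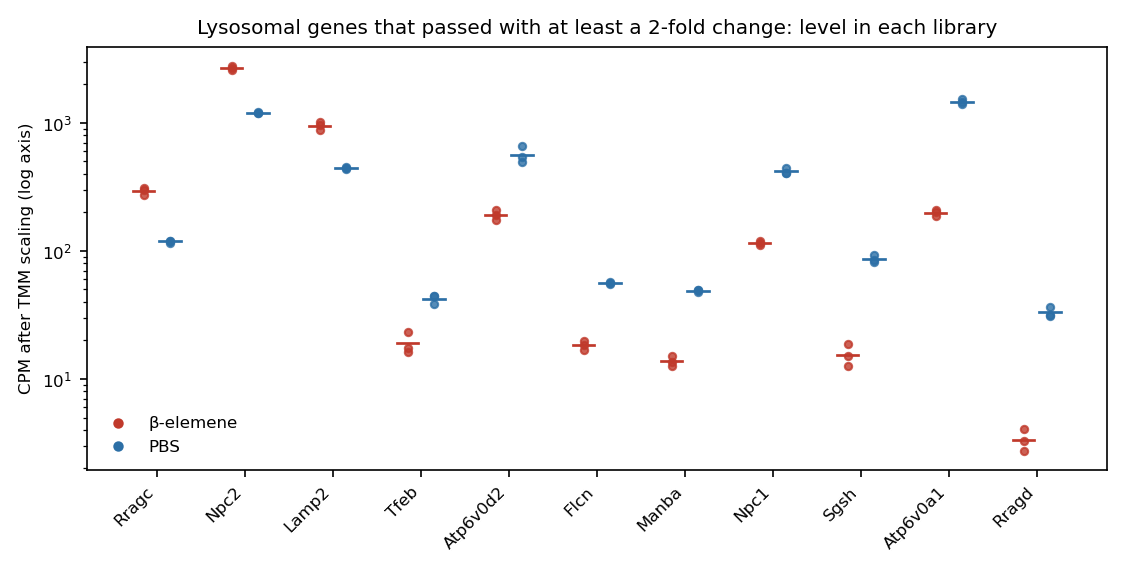
Level (CPM after TMM scaling, log axis) of the 11 lysosomal genes that passed with at least 2-fold change, with 1 point for each of the 3 β-elemene libraries (left, red) and the 3 PBS libraries (right, blue) and a line at the mean. The points of the 2 groups stand apart for every gene, from Rragc at 293.5 and 118.4 CPM to Rragd at 3.35 and 33.0 CPM.

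The 8 regulators held both the largest rise and the largest fall of the 45 genes. RagC and RagD are alternative partners of RagA or RagB in the Rag GTPase dimer. Rragc, which encodes RagC, stood at 272.1, 298.3 and 309.9 CPM with β-elemene and at 115.1, 120.0 and 120.0 CPM with PBS. Rragd, which encodes RagD, stood at 3.26, 4.04 and 2.76 CPM with β-elemene, from 53, 62 and 45 counts, and at 31.1, 36.5 and 31.5 CPM with PBS, from 803, 939 and 809 counts. Neither gene's groups overlapped, and they moved in opposite directions. The log2 fold change was 1.31 ± 0.06 for Rragc (adjusted p = 2.34e-10, edgeR) and −3.30 ± 0.13 for Rragd (adjusted p = 4.2e-11, edgeR), a fall of 9.87-fold and the largest among the 45 genes. Under library-size scaling the values were 0.67 and −3.94.

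Both Rag genes lie on chromosome 4, Rragc at chr4:123917433-123936997 and Rragd at chr4:32982998-33022180, each on the plus strand. The 250 bases before their RefSeq start sites (GRCm38.p6, plus strand, 5′ to 3′) are printed because these 2 genes had the largest rise and the largest fall of the 45. Capitals mark CACGTG, the core of the E-box that MiT/TFE factors bind. It stands once in the Rragc stretch, 112 bases before the start site, and is not among the letters of the Rragd stretch.
Rragc, chr4:123917183-123917432: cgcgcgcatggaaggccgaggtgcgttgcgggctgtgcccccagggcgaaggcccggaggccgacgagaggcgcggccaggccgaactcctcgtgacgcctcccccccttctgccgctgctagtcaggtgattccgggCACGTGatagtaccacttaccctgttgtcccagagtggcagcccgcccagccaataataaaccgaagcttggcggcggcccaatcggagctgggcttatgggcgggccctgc
Rragd, chr4:32982748-32982997: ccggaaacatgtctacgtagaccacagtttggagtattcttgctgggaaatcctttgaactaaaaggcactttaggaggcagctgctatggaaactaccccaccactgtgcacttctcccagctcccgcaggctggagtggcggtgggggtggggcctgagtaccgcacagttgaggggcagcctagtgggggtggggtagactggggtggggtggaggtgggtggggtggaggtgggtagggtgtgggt

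Folliculin, with FNIP1 or FNIP2, stimulates GTP hydrolysis by RagC and RagD. Flcn, the gene for folliculin, was at 18.6, 16.8 and 19.7 CPM with β-elemene and at 57.4, 55.0 and 55.8 CPM with PBS. Its log2 fold change was −1.61 ± 0.07 (adjusted p = 1.85e-10, edgeR). Its partner genes did not follow: Fnip1 had the smallest change of the regulators, at 83.5, 78.5 and 88.6 CPM with β-elemene and 79.3, 79.1 and 85.7 CPM with PBS (adjusted p = 0.59, edgeR). Fnip2 was 0.34 ± 0.07 higher on the log2 scale (adjusted p = 5.94e-04, edgeR), and this turned to −0.30 under library-size scaling.

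Tfeb, the best known activator of lysosomal genes, stood at 17.5, 23.2 and 16.3 CPM with β-elemene and at 44.3, 44.3 and 38.6 CPM with PBS. The groups did not overlap, and the log2 fold change was −1.16 ± 0.12 (adjusted p = 3.03e-06, edgeR). Its relatives did not pass, with log2 fold changes of 0.06 for Tfe3 (adjusted p = 0.42, edgeR) and 0.11 for Mitf (adjusted p = 0.0915, edgeR). The groups did not overlap for Mitf, and its outcome turned on the scaling. Mitf passed as higher with DESeq2 size factors (0.15), but as lower with upper-quartile (−0.21) and library-size scaling (−0.53). Per kilobase, the level of Mitf was 53.3 in the β-elemene group against 49.5 in the PBS group, that of Tfe3 was 45.03 against 43.2, and that of Tfeb was 8.28 against 18.5, so Tfeb had the lowest level of the 3 factors in both groups. Over the 8 regulators, 2 were higher, 3 were lower and 3 did not pass, and under library-size scaling 1 was higher and 7 were lower. Without β-elemene replicate 3, 4 were higher, since Tfe3 and Mitf then passed too, at 0.14 and 0.15.

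After TMM scaling, the 22 hydrolases and lumenal cofactors changed least in size of the 4 classes, with a median size of change of 0.17 on the log2 scale. Under library-size scaling that median was 0.60, above the 0.45 of the membrane proteins. Of the 22 genes, 9 were higher, 6 were lower and 7 did not pass, but under library-size scaling 1 was higher, 19 were lower and 2 did not pass. The count of higher genes was 4 without PBS replicate 1 and also 4 without PBS replicate 3. Psap, the precursor of the saposins that present lipids to hydrolases, was by far the most abundant per kilobase of the 45 genes, at 4035.9 CPM per kilobase with β-elemene and 3951.3 with PBS. Its libraries held 10588.5, 10947.6 and 10634.4 CPM with β-elemene and 10205.8, 11159.1 and 10130.6 CPM with PBS, and these groups overlapped (adjusted p = 0.711, edgeR). Lipa, the acid lipase that frees cholesterol from its esters, changed least, at 603.0, 704.4 and 642.1 CPM with β-elemene and 647.7, 717.0 and 615.3 CPM with PBS (adjusted p = 0.792, edgeR). Under library-size scaling the log2 fold change of Lipa was −0.66, and that of Psap was −0.61.

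Npc2, the lumenal carrier that hands cholesterol to Npc1, was the hydrolase-class gene with the largest rise. It stood at 2693.9, 2569.3 and 2765.2 CPM with β-elemene and at 1198.8, 1186.2 and 1221.3 CPM with PBS, and its log2 fold change was 1.15 ± 0.06 (adjusted p = 1.46e-09, edgeR). The carrier and the membrane protein it delivers to thus moved in opposite directions. Npc2 lies at chr12:84754559-84773112.

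Of the enzymes, 2 fell more than 2-fold. Sgsh, the sulfatase that removes N-linked sulfate from heparan sulfate, was at 15.1, 18.7 and 12.5 CPM with β-elemene and at 85.6, 92.3 and 82.2 CPM with PBS, a log2 fold change of −2.49 ± 0.11 (adjusted p = 3.23e-09, edgeR). Manba, the lysosomal β-mannosidase, was at 13.5, 12.6 and 15.1 CPM with β-elemene and at 49.8, 49.1 and 47.9 CPM with PBS, a log2 fold change of −1.83 ± 0.08 (adjusted p = 1.1e-10, edgeR). In neither gene did the groups overlap. Sgsh lies at chr11:119343489-119355510 and Manba at chr3:135485611-135571404.

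The other enzymes that passed changed by less than 2-fold. Arsb, which removes sulfate from dermatan and chondroitin sulfate, and Gla, the α-galactosidase of globoside breakdown, were 0.63 and 0.54 higher on the log2 scale, and both fell below 0 under library-size scaling, at −0.01 and −0.10. Galns, Gm2a, Neu1, Fuca1, Ppt1 and Glb1 were higher by 0.14 to 0.33, and all 6 were negative under library-size scaling. The groups overlapped for Gm2a, Fuca1 and Ppt1 among these. Among the sphingolipid enzymes, Smpd1, the acid sphingomyelinase, fell by 0.45, and Asah1, the acid ceramidase, fell by 0.27. Gaa, the acid α-glucosidase, and Tpp1, a tripeptidyl peptidase, were each lower by 0.16, and the groups overlapped for Gaa. Hexa, Gusb, Naglu, Arsa, Man2b1, Psap and Lipa did not pass, with log2 fold changes between −0.17 and 0.06.

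The V-ATPase genes that changed most were 2 isoforms of V0 subunits, and both fell. Atp6v0a1, the a1 isoform of the V0 subunit that anchors the pump in its membrane, stood at 207.1, 187.2 and 200.4 CPM with β-elemene and at 1450.3, 1529.3 and 1409.5 CPM with PBS. The mean was 198.2 ± 10.1 CPM with β-elemene and 1463.0 ± 60.9 CPM with PBS (SD, n = 3 each). This is a fall of 7.38-fold, with a log2 fold change of −2.88 ± 0.07 (adjusted p = 3.24e-13, edgeR). Per kilobase, Atp6v0a1 had the highest level of the 8 V-ATPase genes with PBS, at 365.0, and the lowest with β-elemene, at 49.5. The gene lies at chr11:101009422-101063719.

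Atp6v0d2, the d2 isoform of another V0 subunit and abundant in osteoclasts, stood at 172.9, 188.9 and 209.0 CPM with β-elemene and at 537.3, 657.2 and 497.5 CPM with PBS. Its log2 fold change was −1.57 ± 0.11 (adjusted p = 4.91e-07, edgeR), with no overlap. Atp6v0d1, the broadly expressed isoform of the same subunit, had the least change of the class, at 136.6, 154.2 and 147.3 CPM with β-elemene and 143.5, 156.9 and 139.2 CPM with PBS (adjusted p = 0.951, edgeR). Under library-size scaling the log2 fold change of Atp6v0d1 was −0.64. Osteoclast markers were measured beside these: the summed level of 7 ran between 510.2 and 644.4 CPM in the β-elemene libraries and between 242.8 and 260.4 CPM in the PBS libraries, most of it Acp5, with 2 of the 5 tested higher and 2 lower, while Oscar and Calcr were near 0. Their part in the Atp6v0d2 result was not tested.

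Of the remaining V-ATPase genes, Atp6v1a, the catalytic V1 subunit, fell by 0.42 ± 0.06 on the log2 scale (adjusted p = 2.3e-05, edgeR). Atp6v1h, a regulatory V1 subunit, was 0.54 ± 0.06 higher (adjusted p = 1.04e-06, edgeR), but under library-size scaling its value was −0.10. Atp6v1b2, the B2 subunit of V1, had the highest mean level per kilobase of the class, at 294.5 CPM per kilobase with β-elemene and 322.3 with PBS. Its libraries held 822.7, 849.0 and 824.5 CPM with β-elemene and 925.1, 893.9 and 912.3 CPM with PBS, which did not overlap, though the test did not pass (adjusted p = 0.0536, edgeR). Atp6v0c and Atp6ap1 did not pass either, at −0.12 and 0.08. In all, 1 of the 8 genes was higher, 3 were lower and 4 did not pass, and under library-size scaling 0 were higher and 7 were lower.

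**Figure D3:**
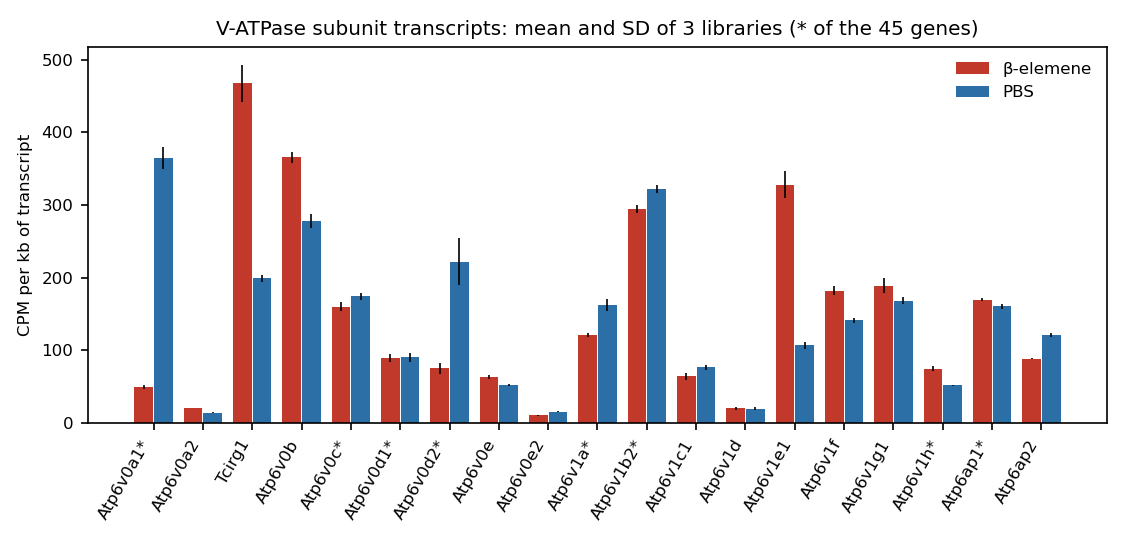
Level per kilobase of transcript (CPM per kilobase) for the V-ATPase genes, as the mean of 3 β-elemene libraries (left bars) and 3 PBS libraries (right bars) with the SD as an error bar. An asterisk marks those among the 45 genes. Atp6v0a1 is at 49.5 with β-elemene and 365.0 with PBS, and Tcirg1, the a3 isoform of the same subunit and not one of the 45 genes, is at 467.4 and 198.9.

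A ratio of 2 genes within the same library does not depend on how libraries are scaled to each other, so 9 pairs of related genes were set against each other in this way. With 3 libraries against 3 the exact two-sided permutation test cannot give a p below 0.1, and 8 pairs reached that value (0.113 after Benjamini-Hochberg adjustment over the 9 pairs). Atp6v0a1 over Tcirg1, the a1 and a3 isoforms of the same pump subunit, was 0.137, 0.138 and 0.143 with β-elemene and 2.42, 2.58 and 2.27 with PBS. Per kilobase, Atp6v0a1 was below Tcirg1 with β-elemene (49.5 against 467.4) and above it with PBS (365.0 against 198.9). Tcirg1 itself averaged 1421.5 ± 77.8 CPM with β-elemene and 604.9 ± 14.3 CPM with PBS (SD, n = 3 each). Rragd over Rragc was 0.0121, 0.0136 and 0.00900 with β-elemene and 0.27, 0.304 and 0.263 with PBS. Npc1 over Npc2 was 0.0412, 0.0468 and 0.0415 with β-elemene and 0.339, 0.377 and 0.331 with PBS.

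The differences in log2 ratio, β-elemene minus PBS, were −4.12 for Atp6v0a1 over Tcirg1, −4.61 for Rragd over Rragc, −3.02 for Npc1 over Npc2 and −1.56 for Atp6v0d2 over Atp6v0d1. Mitf over Tfeb and Tfe3 over Tfeb were higher by 1.28 and 1.23, Lamp2 over Lamp1 by 0.74 and Fnip2 over Fnip1 by 0.30. The groups overlapped for 1 pair, Mitf over Tfe3, with a difference of 0.05 (exact permutation p = 0.5). Each ratio among Mitf, Tfe3 and Tfeb follows from the others, so these are not separate results, though each was counted as a pair.

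**Figure D4:**
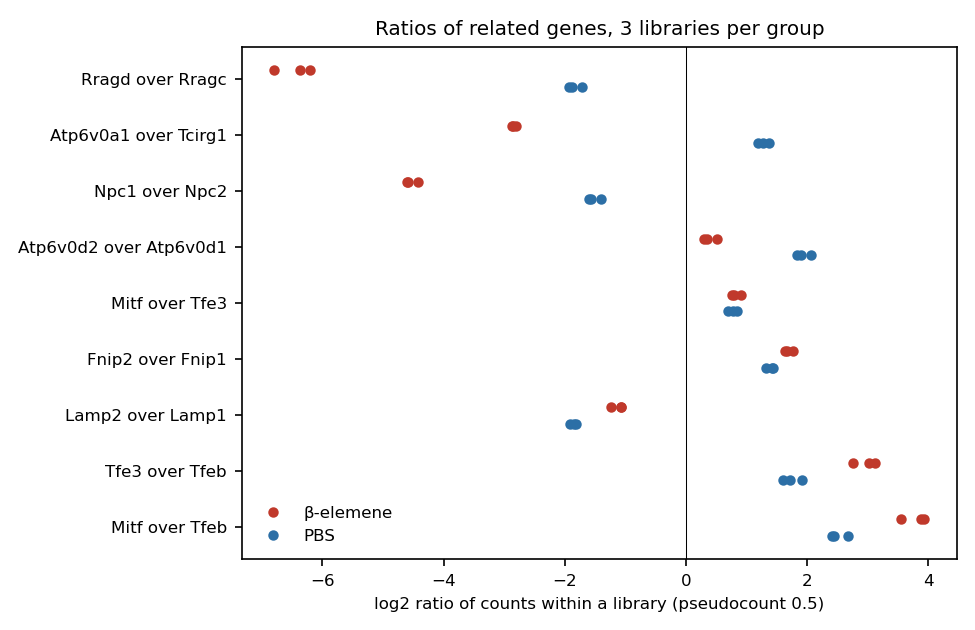
Within-library log2 ratio of the 9 gene pairs, with the 3 β-elemene libraries and the 3 PBS libraries as points. The groups are apart for 8 pairs and overlap for Mitf over Tfe3, and the widest gap is −4.61, for Rragd over Rragc.

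The 45 genes took 2.13%, 2.23% and 2.17% of all counts in the β-elemene libraries and 3.25%, 3.44% and 3.18% in the PBS libraries. These shares are of raw counts, so they carry no TMM correction. Under library-size scaling the median log2 fold change was −0.70 over all genes tested and −0.60 over the 45 genes. Lower shares with β-elemene are therefore not particular to these genes. The V-ATPase genes took 0.208% ± 0.00372 of all counts in the β-elemene libraries and 0.553% ± 0.021 in the PBS libraries (SD, n = 3 each). Without Atp6v0a1 they took 0.192% ± 0.00439 with β-elemene and 0.37% ± 0.0135 with PBS. Psap alone took 0.86% ± 0.025 with β-elemene and 1.31% ± 0.068 with PBS (SD, n = 3 each). Of the counts of the other 44 genes, the V-ATPase took 15.8% ± 0.152 with β-elemene and 27.9% ± 0.142 with PBS, and the hydrolases and cofactors took 43.9% ± 0.436 with β-elemene and 36.5% ± 0.121 with PBS. Membrane proteins took 33.7% ± 0.381 with β-elemene and 29.8% ± 0.0294 with PBS, and the regulators 6.66% ± 0.0327 with β-elemene and 5.84% ± 0.224 with PBS. In none of these 4 classes did the shares of the 2 groups overlap. The 4 shares are parts of 1 whole, so they are not separate results, and a lower V-ATPase share means higher shares among the others. Of all counts, the hydrolases and cofactors with Psap took less with β-elemene, at 1.44% against 2.03% with PBS. Atp6v0a1 carried much of the differences within the 44 genes. With it left out as well, which was chosen after seeing the data, the V-ATPase took 14.7% ± 0.146 with β-elemene and 20.6% ± 0.0779 with PBS, and the hydrolases and cofactors 44.5% ± 0.407 with β-elemene and 40.2% ± 0.148 with PBS. The membrane proteins then took 34.1% ± 0.412 with β-elemene and 32.8% ± 0.0404 with PBS, and the regulators 6.74% ± 0.0344 with β-elemene and 6.43% ± 0.242 with PBS.

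**Figure D5:**
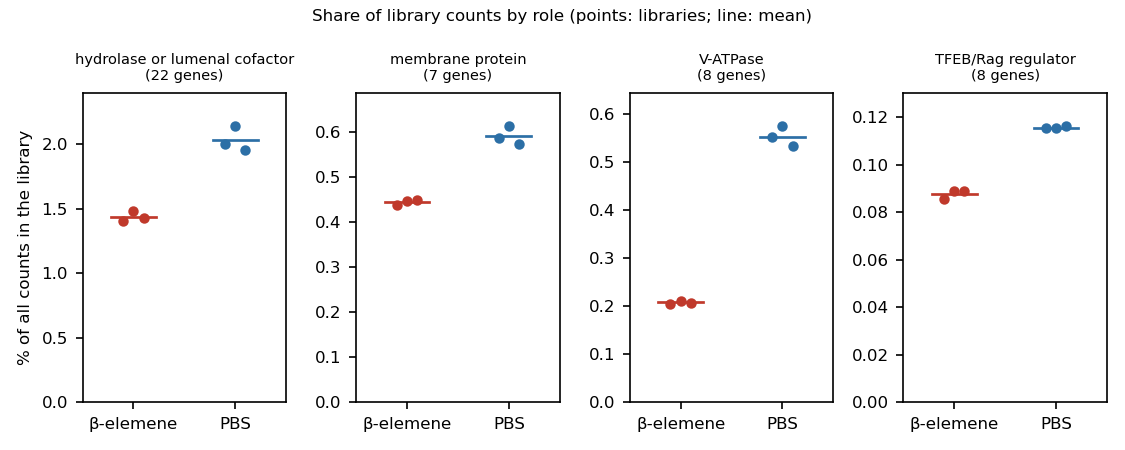
Share of each class in all counts of a library (percent, each panel with its own axis from 0), with points for the 3 β-elemene libraries and the 3 PBS libraries and a line at the mean. The V-ATPase panel has the widest relative gap, at 0.208% with β-elemene and 0.553% with PBS. The shares carry no TMM correction, and under library-size scaling the median log2 fold change over all genes tested was −0.70.

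The rest of the lysosomal gene set was taken from a list of 187 further names. These are 184 genes, since Pip4p1, Slc66a1 and Samtor are other names of the listed Tmem55b, Pqlc2 and Bmt2, and 177 of them were tested. Of the 177, 70 were higher, 66 were lower and 41 did not pass in edgeR, while library-size scaling gave 24 higher and 133 lower. The share that passed in edgeR was 76.8%, close to the 76.7% of all genes tested. By class, 72.2% of the hydrolases and cofactors, 83.3% of the membrane proteins and 86.4% of the V-ATPase list passed. For the regulators the share was 80%, for genes of lysosomal sorting 76.7% and for cathepsins and related genes 46.15%. Among 36 other hydrolases and cofactors, 16 were higher and 10 lower. Smpdl3b, a phosphodiesterase related to acid sphingomyelinase, rose by 3.20 on the log2 scale. Rnaset2a and Rnaset2b, near-identical copies of an acid ribonuclease whose reads may have been split between them, rose by 2.96 and 2.996. Pla2g15, the lysosomal phospholipase A2, averaged 44.9 ± 1.33 CPM with β-elemene and 642.0 ± 22.3 CPM with PBS (SD, n = 3 each), a log2 fold change of −3.84 (adjusted p = 2.13e-14, edgeR). Hyal1, a hyaluronidase, and Dnase2a, an acid deoxyribonuclease, fell by 1.86 and 1.52. These named genes kept their signs under library-size scaling.

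Of 36 other membrane proteins tested, 15 were higher and 15 were lower. Clcn7, the chloride-proton exchanger of the lysosome, averaged 1015.8 ± 27.9 CPM with β-elemene and 218.3 ± 15.6 CPM with PBS (SD, n = 3 each), a log2 fold change of 2.22. Stard3, a sterol transporter, and Slc15a3, a peptide and histidine transporter, rose by 2.23 and 1.91. The 3 largest falls with a mean of at least 5 CPM were those of Slc36a1, a carrier of small amino acids, by 2.73, Slc17a5, a carrier of sialic acid, by 2.56, and Pqlc2, a carrier of cationic amino acids, by 2.42.

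Of 22 other genes listed with the V-ATPase and tested, 10 were higher and 9 lower. Rmc1, listed as 3110002H16Rik in the table, is among the 22 but is not a pump gene; it did not pass, and the other 21 hold the same 10 and 9. Ncoa7, an oxidation-resistance family protein that binds the pump, rose by 2.98, Atp6v1e1, a stalk subunit, by 1.62 and Tcirg1 by 1.23. Dmxl2 and Wdr7, which help assemble the pump, fell by 2.26 and 1.15, and Ccdc115, an assembly factor, by 1.22. Of 40 other regulators, 14 were higher and 18 were lower. Sh3bp4, which binds the Rag GTPases, rose by 3.34, Bmt2, the SAM sensor of the mTORC1 pathway, by 1.64 and Seh1l, of the GATOR2 complex, by 0.62, the last of which was −0.01 under library-size scaling. Sesn1, a sestrin that inhibits mTORC1 signalling, fell by 3.82, Gatsl2, a relative of the arginine sensor CASTOR1, by 2.84 and Tfec, the remaining MiT/TFE factor, by 1.81.

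Of 30 genes of lysosomal sorting, 10 were higher and 13 lower. M6pr, the small mannose 6-phosphate receptor, rose by 0.94 and Igf2r, the large one, fell by 0.85. Arl8a, a small GTPase of lysosome transport, and Ap3b1, of the AP-3 coat, rose by 1.01 and 1.00, and Gga2, a Golgi sorting adaptor, and Plekhm1, a Rab7 effector, fell by 1.56 and 1.41. Of 13 cathepsins and related genes tested, 5 were higher, 1 was lower and 7 did not pass. Ctsc, the cathepsin that activates serine proteases, averaged 1616.6 ± 162 CPM with β-elemene and 303.2 ± 29.8 CPM with PBS (SD, n = 3 each), a log2 fold change of 2.41. Ctsl and Ctso rose by 0.45 and 0.37, which became −0.19 and −0.27 under library-size scaling, and Lgmn, the asparaginyl endopeptidase, fell by 0.93.

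TFEB and its relatives bind the CLEAR element in promoters of lysosomal genes, searched here in a form of 10 letters, TCACGTGA with a G before and a C after it. Promoter windows from RefSeq, from 250 bases before to 50 after the start site on GRCm38.p6, were matched for 39 of the 45 genes, and Npc1, Galns, Asah1, Atp6v0d2, Atp6v1b2 and Atp6v1h were not matched. Some genes had several windows, and a gene was counted once if any of its windows held the motif. The form of 10 letters was found for 0 of 39 genes and for 0.844% of the tested genes with a window. Its inner 8 letters, TCACGTGA, were found for 4 of 39 (10.3%) and for 2.28% of tested genes, and CACGTG for 12 of 39 (30.8%) and 12% of tested genes. CATGTG, on either strand, was in 6 of 39 (15.4%) and 10.5% of tested genes. The first 3 motifs read the same on both strands, and each longer one contains the shorter. A match is a description of letters and not of binding.

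The 30 bases around each TCACGTGA match are printed, 5′ to 3′ on the strand of the gene and with the match in capitals, to show how the flanking letters differ. They were chosen for the match after the values had been seen. Of the 4 genes, Gla was higher by 0.54, Atp6v1a fell by 0.42, and Mcoln1 and Atp6v0d1 did not pass.
Atp6v0d1, chr8:105566050-105566079, minus strand: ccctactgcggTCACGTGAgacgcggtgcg
Atp6v1a, chr16:44139373-44139402, minus strand: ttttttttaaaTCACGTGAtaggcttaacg
Gla, chrX:134601215-134601244, minus strand: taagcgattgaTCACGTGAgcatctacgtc
Gla, chrX:134601182-134601211, minus strand: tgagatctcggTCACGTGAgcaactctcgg
Mcoln1, chr8:3500462-3500491, plus strand: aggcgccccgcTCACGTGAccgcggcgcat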

How the data were processed

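Stranded poly(A) libraries were prepared from RNA whose integrity number was 7 or more and sequenced with paired reads (125 or 150 bases), per the labels' protocols. The submitters' processing notes name HISAT2 2.2.1.0 and, as builds, GRCm38.p6 and mm10. The deposited values are raw counts of reads for each gene, as whole numbers. How reads were counted, and with which strand setting, is not given in the sources used here. Of the 21878 genes, 6562 had no counts, and 27 symbols turned into dates by a spreadsheet were restored by gene identifier. No 2 libraries of a group agreed within sampling noise.

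Low genes were removed with filterByExpr (at least 10 counts, and 15 in total), scaled by TMM and tested with edgeR 4.0.16 in R 4.3.3 (robust glmQLFit, glmQLFTest, group as the only term), with Benjamini-Hochberg adjustment over 11459 genes. The SE was derived from the fold change and the F statistic. The steps were tested on simulated counts in which a small part of the genes changed, in both directions. Most genes passed in the real data, so the simulation does not check the scaling between libraries. Ratios within a library added 0.5 to each count, and 1 further pair is not reported here. Transcript length is that of the longest APPRIS principal transcript of GENCODE M21, and coordinates are of GRCm38.p6.

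Genes given with the value in each library were, per class, those that passed with at least 2-fold change, the most abundant per kilobase and the one with the least change. Further lysosomal genes named were up to 3 rises and 3 falls per class, by size, with a mean of at least 5 CPM. Scarb2 was added after its values were seen. The genes and lists were chosen with earlier results of these data known. The alternatives were 3 other scalings, 2 other filters, a replicate block, limma-voom 3.58.1, DESeq2 1.42.0 and leaving out each library.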

Additional observations from a re-analysis of the deposited data

How the results depend on the processing

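The choice that moved most results was the scaling between libraries. With upper-quartile scaling 7 of the 45 genes were higher and 32 lower, and with library size alone 4 were higher and 38 lower, with median log2 fold changes of −0.28 and −0.60. By class, upper-quartile scaling gave 2 membrane proteins, 1 regulator and 3 hydrolases or cofactors higher, and 6 regulators, 16 hydrolases or cofactors and 7 V-ATPase genes lower. Library size alone gave 2 membrane proteins, 1 regulator, 1 hydrolase or cofactor and 0 V-ATPase genes higher, and 5, 7, 19 and 7 lower. DESeq2 called 2 V-ATPase genes higher and limma-voom 5 lower. Of the other lysosomal genes, upper-quartile scaling gave 44 higher, and library size alone gave 24 higher and 133 lower. Over all genes tested, library size alone gave 2166 higher and 8003 lower.

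With library size alone the sign turned for Lamp1 (−0.29), Cd68 (−0.39), Mcoln1 (−0.52), Tfe3 (−0.58), Mitf (−0.53), Fnip1 (−0.60), Fnip2 (−0.30), Gla (−0.10), Glb1 (−0.49), Galns (−0.30), Naglu (−0.58), Arsb (−0.0123), Man2b1 (−0.60), Fuca1 (−0.47), Neu1 (−0.46), Psap (−0.61), Gm2a (−0.44), Ppt1 (−0.48), Atp6v1h (−0.10) and Atp6ap1 (−0.56). With the upper quartile it turned for Cd68 (−0.064), Mcoln1 (−0.19), Tfe3 (−0.26), Mitf (−0.21), Fnip1 (−0.28), Glb1 (−0.17), Naglu (−0.26), Man2b1 (−0.28), Fuca1 (−0.15), Neu1 (−0.14), Psap (−0.28), Gm2a (−0.12), Ppt1 (−0.15) and Atp6ap1 (−0.23). Hexa, Lipa and Atp6v0d1, all near 0 after TMM scaling, turned to 0.0073, 0.0173 and 0.0353 with DESeq2 size factors and to 0.0051, 0.0151 and 0.0331 with DESeq2. With library size alone they were −0.67, −0.66 and −0.64, and all passed as lower there and with the upper quartile. Which scaling is nearer to the cells was not tested. For the summed markers, an alternative chosen after seeing the data, library size alone turned the log2 ratio of β-elemene over PBS to −0.29 for macrophages, −0.43 for T or NK cells and −0.36 for fibroblasts.

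Leaving out 1 library at a time gave between 2 and 4 regulators and between 4 and 9 hydrolases or cofactors higher, and log2 fold changes of −0.0635 to 0.0205 for Hexa, −0.072 to 0.0466 for Lipa and −0.0417 to 0.0599 for Atp6v0d1. All 72 alternative values of the ratios within a library, from other pseudocounts and from leaving out each library, kept their direction. For the 8 pairs whose groups did not overlap, leaving out a library could not have turned the direction, so it is no check of them. Replicate numbers are shared between the groups, but same-numbered libraries did not deviate together (correlations of −0.03, 0.06 and 0.02). Nor did every library correlate best with its own number. With so few libraries these correlations cannot tell whether same-numbered libraries shared a culture or preparation. With a replicate block, 16 of the 45 genes were higher and 15 lower, Gusb being the added call, and over all genes 4188 were higher and 4605 lower. Depth limits Rragd most, at 45 to 62 counts in the β-elemene libraries.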
